A study of Mus musculus with 9 samples.

Results

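Genes of meiosis and the germline were followed in neural stem cells that had lost Smchd1, a chromatin protein required for silencing on the inactive X chromosome and at some imprinted and clustered genes. The set was a list of 35 gene symbols, taken by name from the deposited expression table, and 34 of them had a row among the 25965 rows. Meiob, which encodes a single-strand DNA-binding protein of meiotic recombination, had no row and was not analysed here. RNA-seq had been made from C57BL/6 neural stem cell lines, each grown from an E14.5 embryo that carried floxed Smchd1 alleles (fl/fl). A portion of each line received MSCV-Cre-puro, a retroviral vector for Cre recombinase with a drug selection cassette, was kept in puromycin from 24 h and was collected on day 7, which gave the del/del cells. The fl/fl cells were not transduced. The 4 del/del libraries came from female lines 1, 2 and 3 and male line 5, and the 5 fl/fl libraries came from the same lines and from male line 7. Since every del/del library had also received the retrovirus and the drug, the loss of Smchd1 and these treatments cannot be told apart.

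Meiosis reduces the chromosome number of germ cells. Homologous chromosomes are cut and recombined, are held by cohesin complexes with meiotic subunits, and are zipped together by the synaptonemal complex. In parallel, germ cells keep transposons silent with piRNAs, small RNAs bound by PIWI proteins and made in granules rich in Tudor-domain proteins. Somatic cells, neural stem cells included, hold most of these genes silent, with DNA methylation of CG-rich promoters and with a Polycomb complex that contains E2F6, MGA, MAX and L3MBTL2.

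Female fl/fl 2 held 24.1 M reads and the other 8 libraries between 74.0 and 117 M reads, as recovered from the values. Together the del/del libraries held 380 M reads and the fl/fl libraries 471 M. Read totals given below for the groups are not adjusted for this. Values are log2 reads per 1000000 reads (RPM), counted over the whole span of each gene, introns included. Female fl/fl 2 also stood apart in the share of its reads that fell in the rows, 53.3% against at most 44.4% in the other libraries. Smchd1 itself averaged 5.21 log2 RPM in del/del and 6.39 in fl/fl libraries, and fell by 1.19 (SE 0.148, limma adjusted p = 0.0075), with 3047 to 3822 reads left in each del/del library. All 12 neural stem cell markers on the list used passed the filter on low values. Replicates were separate lines.

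Read totals over the 9 libraries ran from 0 to 27007 (Tdrkh). Piwil1, a PIWI protein of late spermatogenesis, and Rpl10l, a testis copy of a ribosomal protein gene, had 0 reads in all 9 libraries, which allows at most 0.00353 RPM over the 851 M reads of all libraries (3 reads; counting error only). Tex101, a sperm cell-surface protein gene, had 1 read, Mael, a piRNA factor, 3, and Syce1, a central element protein of the synaptonemal complex, 8. A further 8 members had between 10 and 99 reads in total: Dazl, Stra8, Hormad1, Asz1, Slc25a31, Tdrd9, Piwil4 and Sycp1. In the table as a whole 35.4% of rows had under 100 reads, against 38.2% of the members. Reads were found for 22 members in every library.

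The filter for testing, at least 1 RPM (log2 of 0) in at least 3 libraries, was passed by 9 members, which is 26.5% of the 34 against 54.1% of all rows. They were Tdrkh, Syce2, Tex15, Sycp3, Rec8, Brdt, Stag3, Smc1b and Ddx4. The other 25, among them 12 with 100 reads or more, were not tested in the main fit. Per kilobase of gene span, introns included, Tdrkh had 1.69 RPM, Rec8 0.956, Syce2 0.683 and Sycp3 0.606, all above Tex15 at 0.110. Exons made 39.9% of the Rec8 gene, 28.7% of Tdrkh and 9.25% of Sycp3, so these values do not rank the genes by transcript level. Stag3, Brdt, Tdrd6, Smc1b and Ddx4 had between 0.0213 and 0.0898 RPM per kilobase, and the remaining members 0.0109 or less.

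**Figure D1:**
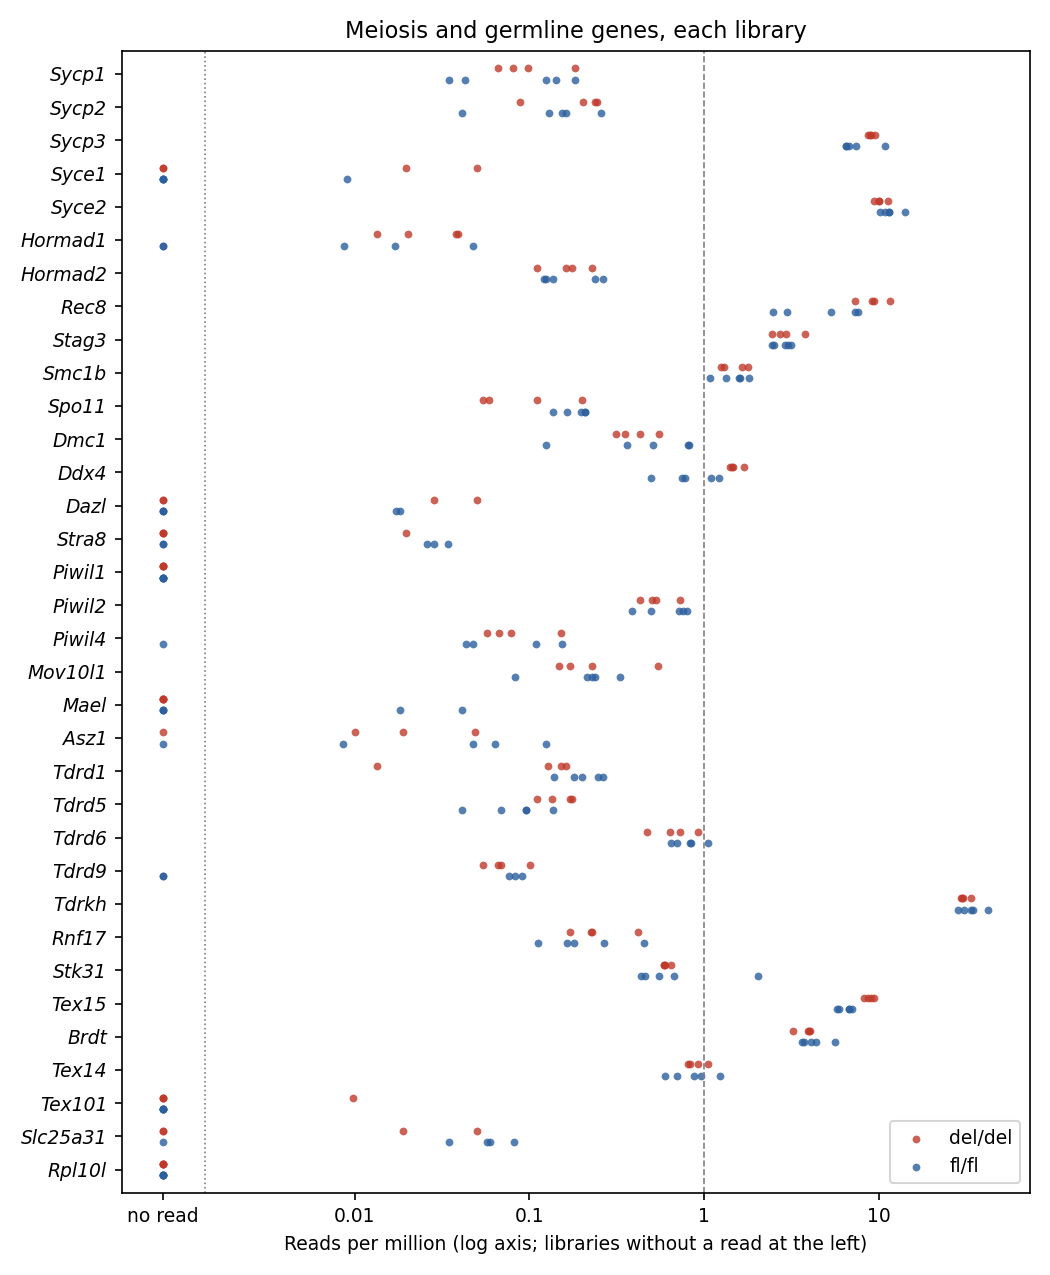
RPM of the 34 members in the 9 libraries (log scale; libraries without a read sit left of the dotted line; red, del/del; blue, fl/fl), with a dashed line at 1 RPM. Tdrkh lies highest, 9 members passed the filter, and Piwil1 and Rpl10l had no read anywhere.

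Promoters of some members that passed the filter and of some members with at most 3 reads in total are shown here. The reason is that the 2 motifs set in capitals, an E2F site and an E-box, are letters that E2F6 and MGA-MAX are known to bind. The E2F site searched was TTCCCGC, read on either strand. The E-box searched has the same letters on both strands, CACGTG, and in the members no match of the first overlapped one of the second. The sequences, from RefSeq on GRCm38.p6, run from 250 bases before to 50 after the start of transcription, in the direction of transcription.
Sycp3 (chr10:88459337-88459636, plus strand): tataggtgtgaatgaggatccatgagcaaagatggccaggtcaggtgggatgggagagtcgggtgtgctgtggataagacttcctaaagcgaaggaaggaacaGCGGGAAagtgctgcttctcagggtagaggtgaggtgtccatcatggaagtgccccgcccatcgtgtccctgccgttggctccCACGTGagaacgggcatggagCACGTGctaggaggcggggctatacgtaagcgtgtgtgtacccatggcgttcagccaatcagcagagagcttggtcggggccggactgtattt
Ddx4 (chr13:112652261-112652560, minus strand): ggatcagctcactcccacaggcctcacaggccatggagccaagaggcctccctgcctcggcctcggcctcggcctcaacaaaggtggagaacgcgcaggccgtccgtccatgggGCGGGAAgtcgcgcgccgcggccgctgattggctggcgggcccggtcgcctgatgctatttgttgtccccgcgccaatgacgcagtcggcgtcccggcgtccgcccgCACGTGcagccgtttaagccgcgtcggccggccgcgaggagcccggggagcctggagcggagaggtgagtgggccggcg
Rec8 (chr14:55617916-55618215, plus strand): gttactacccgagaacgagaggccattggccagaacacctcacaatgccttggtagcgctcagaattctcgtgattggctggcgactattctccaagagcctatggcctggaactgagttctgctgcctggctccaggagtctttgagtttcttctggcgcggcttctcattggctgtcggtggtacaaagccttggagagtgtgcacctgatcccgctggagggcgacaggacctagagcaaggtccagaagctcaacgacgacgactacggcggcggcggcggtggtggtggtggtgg
Tdrkh (chr3:94412994-94413293, plus strand): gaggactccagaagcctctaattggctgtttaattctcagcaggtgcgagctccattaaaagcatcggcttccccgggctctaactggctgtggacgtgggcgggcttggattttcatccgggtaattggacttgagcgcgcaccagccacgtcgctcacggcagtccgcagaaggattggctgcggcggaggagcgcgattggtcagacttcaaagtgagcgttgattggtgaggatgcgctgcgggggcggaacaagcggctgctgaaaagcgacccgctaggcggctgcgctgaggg
Mael (chr1:166238695-166238994, minus strand): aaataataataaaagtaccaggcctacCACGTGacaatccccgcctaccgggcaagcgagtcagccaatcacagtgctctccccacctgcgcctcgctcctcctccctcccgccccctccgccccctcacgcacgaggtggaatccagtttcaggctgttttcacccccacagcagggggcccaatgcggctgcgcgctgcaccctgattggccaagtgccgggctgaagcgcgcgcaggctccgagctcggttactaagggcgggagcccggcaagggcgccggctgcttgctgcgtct
Piwil1 (chr5:128735996-128736295, plus strand): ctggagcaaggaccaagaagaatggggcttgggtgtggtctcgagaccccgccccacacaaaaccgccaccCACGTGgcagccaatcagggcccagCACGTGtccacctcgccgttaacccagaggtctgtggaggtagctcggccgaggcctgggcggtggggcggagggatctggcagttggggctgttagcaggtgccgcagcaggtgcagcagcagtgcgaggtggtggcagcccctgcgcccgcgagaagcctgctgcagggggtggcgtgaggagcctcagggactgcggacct
Rpl10l (chr12:66284352-66284651, minus strand): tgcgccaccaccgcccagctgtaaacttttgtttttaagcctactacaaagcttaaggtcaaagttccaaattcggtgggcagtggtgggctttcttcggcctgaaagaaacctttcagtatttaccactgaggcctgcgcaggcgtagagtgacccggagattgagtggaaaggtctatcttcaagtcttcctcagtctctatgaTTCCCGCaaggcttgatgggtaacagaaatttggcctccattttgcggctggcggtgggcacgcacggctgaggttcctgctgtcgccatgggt
Sycp3 held 1 E2F match and 2 E-boxes, Ddx4 1 of each, Mael 1 E-box, Piwil1 2 E-boxes and Rpl10l 1 E2F match. Rec8 and Tdrkh held neither. Brdt, Smc1b, Stag3 and Syce2, which passed the filter, and Tex101, with 1 read in total, also had an entry but are not shown. Of these, Brdt held 1 E-box, Smc1b 1 E2F match and Tex101 neither motif.

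Across the set, 29 members matched a promoter entry. An E-box was found in 14 of them (48.3%), against 8.09% of all 27018 genes with an entry and 12.3% of the 12068 genes whose CG count lay in the members' range. The E2F motif was found in 10 (34.5%), against 5.29% and 10.1%. Both were present in 6 members (20.7%), against 0.611% and 1.26%. Among the 8 members that passed the filter and had an entry, 4 held both, namely Sycp3, Ddx4, Stag3 and Syce2, and among the 21 that did not pass, 2 held both, Hormad1 and Slc25a31. The letters were therefore found both in promoters of members with reads and in promoters of members at the floor. The median number of CG dinucleotides in the window was 20 in the members and 8 in all genes. It was 27 in members that passed the filter and 19 in those that did not.

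The 3 members of meiotic cohesin, the ring that holds sister chromatids together, passed the filter. Rec8 (chr14:55618037-55625395, plus strand, mm10), the meiotic kleisin subunit, measured 3.24, 2.88, 3.54 and 3.19 log2 RPM in del/del lines 1, 2, 3 and 5. In fl/fl lines 1, 2, 3, 5 and 7 it measured 2.93, 1.31, 2.41, 1.57 and 2.88. The del/del libraries were close to each other, and the fl/fl libraries were more spread. Line 1 lay above the lowest del/del library, line 7 lay just under it, and lines 2, 3 and 5 lay lower. The means were 3.21 ± 0.268 (SD, n = 4) and 2.22 ± 0.744 (SD, n = 5), and the log2 difference of 0.99 (SE 0.349) did not pass the test over both sexes (limma adjusted p = 0.302). Each line was split to make its pair of libraries, and with the line as a block the difference of 1.16 (SE 0.208) passed (adjusted p = 0.0217). Median centring with the block took it back above the threshold (adjusted p = 0.0814). Rec8 ends 4 bases before the start of the Ipo4 row, which differed by 0.026 (adjusted p = 0.998), and Irf9, the nearest row before Rec8, differed by 0.39 (adjusted p = 0.242). Irf9 lay at 3.31 log2 RPM or more in every del/del library and at 3.22 or less in every fl/fl library. Groups without overlap were seen in 6.52% of all tested genes. Neighbouring rows here and below were chosen after values had been seen. In bulk RNA, fewer cells of a type and less RNA per cell cannot be told apart.

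Stag3 and Smc1b, the STAG and SMC subunits of the same complexes, showed no difference past the test. Stag3 measured 1.92, 1.56, 1.45 and 1.29 log2 RPM in del/del lines 1, 2, 3 and 5, and 1.54, 1.34, 1.29, 1.60 and 1.65 in fl/fl lines 1, 2, 3, 5 and 7. These ranges overlapped almost fully, and the difference was 0.073 (SE 0.170, limma adjusted p = 0.997). Smc1b measured 0.83, 0.32, 0.72 and 0.39 against 0.67, 0.69, 0.42, 0.12 and 0.86, with a difference of -0.013 (SE 0.227, limma adjusted p = 0.999) whose sign depended on the setting. The Smc1b span holds the pseudogene Gm10923, which took 22.4 to 29.8% of its reads in each library. The 3 cohesin genes together made 11.6 to 16.0 RPM in del/del and 6.63 to 12.3 RPM in fl/fl libraries. Rec8 held 6249 of their 9964 reads, so these sums say little about Stag3 and Smc1b.

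Ddx4 (chr13:112598333-112652310, minus strand), the Vasa RNA helicase that marks germ cells, was low but present in every library. It had 104, 154, 169 and 147 reads in del/del lines 1, 2, 3 and 5, and 128, 18, 86, 52 and 141 in fl/fl lines 1, 2, 3, 5 and 7. On the log2 RPM scale these were 0.49, 0.55, 0.77 and 0.53 against 0.13, -0.42, -0.35, -1.01 and 0.29. Every del/del library lay above every fl/fl library. The means were 0.59 ± 0.127 (SD, n = 4) and -0.27 ± 0.514 (SD, n = 5), and the difference of 0.84 (SE 0.307) did not pass the test (limma adjusted p = 0.330), nor did the difference of 1.00 (SE 0.234) with the line as a block (adjusted p = 0.0567). The rows on either side, Slc38a9 and Il31ra, differed by 0.13 and -0.25. Dazl, an RNA-binding protein of germ cell differentiation, had 8 reads in the 4 del/del libraries and 4 in the 5 fl/fl libraries. Stra8, which starts the meiotic programme in response to retinoic acid, had 2 and 10.

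Tex15 (chr8:33516738-33585582, plus strand), which acts with the PIWI pathway in silencing transposons and in meiotic repair, had a smaller spread in both groups than Rec8 or Ddx4. It measured 3.24, 3.12, 3.18 and 3.05 log2 RPM in del/del lines 1, 2, 3 and 5. In fl/fl lines 1, 2, 3, 5 and 7 it measured 2.82, 2.77, 2.54, 2.57 and 2.76. The groups did not overlap, and the means were 3.15 ± 0.083 (SD, n = 4) and 2.69 ± 0.128 (SD, n = 5). The log2 difference of 0.44 (SE 0.103) missed the threshold over both sexes (limma adjusted p = 0.0742) and passed with the line as a block (0.47, SE 0.107, adjusted p = 0.0485). Without the sex term, when 2% of all genes were called, it passed too (adjusted p = 0.0362), and with the block and median centring it did not (adjusted p = 0.119). Ppp2cb, the row after Tex15, differed by -0.13 (adjusted p = 0.997).

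The other genes of the piRNA pathway and of germ granules ran from none to well detected. Tdrkh (chr3:94413296-94432633, plus strand), a mitochondrial Tudor protein that helps trim piRNA precursors, measured 5.08, 4.89, 4.92 and 4.91 log2 RPM in del/del lines 1, 2, 3 and 5 and 5.12, 5.41, 4.83, 4.94 and 5.07 in fl/fl lines 1, 2, 3, 5 and 7. The groups overlapped, and the difference was -0.14 (SE 0.127, limma adjusted p = 0.997). Tdrd6, a large Tudor protein of the chromatoid body, had 269 reads in del/del and 384 in fl/fl libraries, Piwil2, a PIWI protein of early germ cells, 212 and 309, and Mov10l1, the helicase that feeds PIWI proteins, 104 and 115. In mean RPM, Mov10l1 was higher in del/del (0.273) than in fl/fl libraries (0.218). Tdrd1, a scaffold of the granules, had 46 and 93 reads, with 1 read in female del/del 1 and 13 to 17 in the other del/del libraries. Piwil4, the nuclear PIWI protein of fetal germ cells, had 34 and 40 reads (mean 0.0887 and 0.0709 RPM), and part of its span is shared with the antisense row Gm10706 (32 reads in all). Tdrd5, needed for piRNA precursors to reach granules, had 57 and 45 reads. Tdrd9, an RNA helicase whose span holds the row BC048943 (0 reads), had 28 and 20, Rnf17, a Tudor protein with a RING domain, 95 and 91, and Asz1, a mitochondrial scaffold, 8 and 16. Stk31, a Tudor protein with a kinase domain, had 44 to 71 reads in every library and reached 1.02 log2 RPM in female fl/fl 2, where the depth was smallest, against at most -0.56 in the others. The 14 genes of this role, Tex15 included, together made 41.2 to 45.6 RPM in del/del and 37.7 to 53.8 RPM in fl/fl libraries. Tdrkh and Tex15 held 27007 and 6389 of their 35881 reads, so these sums say little about the others.

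The synaptonemal complex was represented mainly by Sycp3 and Syce2. Sycp3 (chr10:88459569-88473236, plus strand), a core protein of the lateral element, measured 3.17, 3.25, 3.18 and 3.13 log2 RPM in del/del lines 1, 2, 3 and 5. In fl/fl lines 1, 2, 3, 5 and 7 it measured 2.71, 3.44, 2.70, 2.77 and 2.90. All del/del libraries lay above the fl/fl libraries except female fl/fl 2, which was the highest of all 9. The means were 3.18 ± 0.0487 (SD, n = 4) and 2.91 ± 0.310 (SD, n = 5), and the difference of 0.26 (SE 0.156) did not pass (limma adjusted p = 0.770). The whole Sycp3 row lies inside Chpt1 on the opposite strand, and its reads were 23.1 to 27.6% of the Chpt1 reads in each library. Chpt1 differed by 0.16 (adjusted p = 0.997) and was likewise highest in female fl/fl 2, at 5.52 log2 RPM. With no strand given for the counts, reads of these 2 genes cannot be told apart.

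Syce2 (chr8:84872111-84888221, plus strand), of the central element, measured 3.50, 3.34, 3.23 and 3.33 log2 RPM in del/del lines 1, 2, 3 and 5. Its values in fl/fl lines 1, 2, 3, 5 and 7 were 3.52, 3.83, 3.35, 3.44 and 3.51, so the groups overlapped. The difference was -0.19 (SE 0.118, limma adjusted p = 0.788), and 11.4% of its row is shared with Gcdh, which differed by 0.13 (adjusted p = 0.994). Sycp1, the transverse filament, had 41 reads in del/del and 47 in fl/fl libraries. Sycp2, of the lateral element, had 72 and 80. In mean RPM, Sycp1 was 0.107 in del/del and 0.105 in fl/fl libraries, and Sycp2 0.193 and 0.149.

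The members of the chromosome axis and of recombination, Hormad1, Hormad2, Spo11 and Dmc1, stayed under the filter. Hormad1 and Hormad2, axis proteins that monitor pairing, had 11 and 63 reads in del/del and 8 and 87 in fl/fl libraries. Spo11, the enzyme that cuts DNA to start recombination, had 4, 21, 11 and 6 reads in del/del lines 1, 2, 3 and 5, and 23, 5, 15, 22 and 19 in fl/fl lines 1, 2, 3, 5 and 7. The groups overlapped, and without the filter the difference was -1.02 (SE 0.478, limma adjusted p = 0.603). Dmc1, the meiotic recombinase, had 32, 33, 35 and 56 reads against 96, 3, 40, 54 and 94. Its level in female fl/fl 2, -3.01 log2 RPM, was the lowest, and the groups overlapped.

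Among the other testis genes, Brdt, a bromodomain protein that reads acetylated histones in spermatids, passed the filter. It measured 2.02, 2.00, 1.98 and 1.70 log2 RPM in del/del lines 1, 2, 3 and 5 and 1.90, 2.48, 2.04, 1.86 and 2.13 in fl/fl lines 1, 2, 3, 5 and 7. The groups overlapped and the difference was -0.19 (SE 0.147, limma adjusted p = 0.942). Tex14, a protein of the bridges between germ cells, had 348 and 380 reads in del/del and fl/fl libraries (mean 0.908 and 0.878 RPM). Slc25a31, a mitochondrial nucleotide carrier of sperm, had 0, 2, 5 and 0 reads in the del/del lines and 7, 0, 9, 6 and 4 in the fl/fl lines. Without the filter its difference was -1.63 (SE 0.561, limma adjusted p = 0.318), the largest in size among the members, from counts of 9 or fewer. In fits without the filter, 0 reads entered at -4.74 log2 RPM in female fl/fl 2, and at -7.02 to -6.36 in the other libraries. The 0 reads of Slc25a31 in female fl/fl 2 thus entered above its 2 reads in female del/del 2 (-5.72), so depth is part of this difference.

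**Figure D2:**
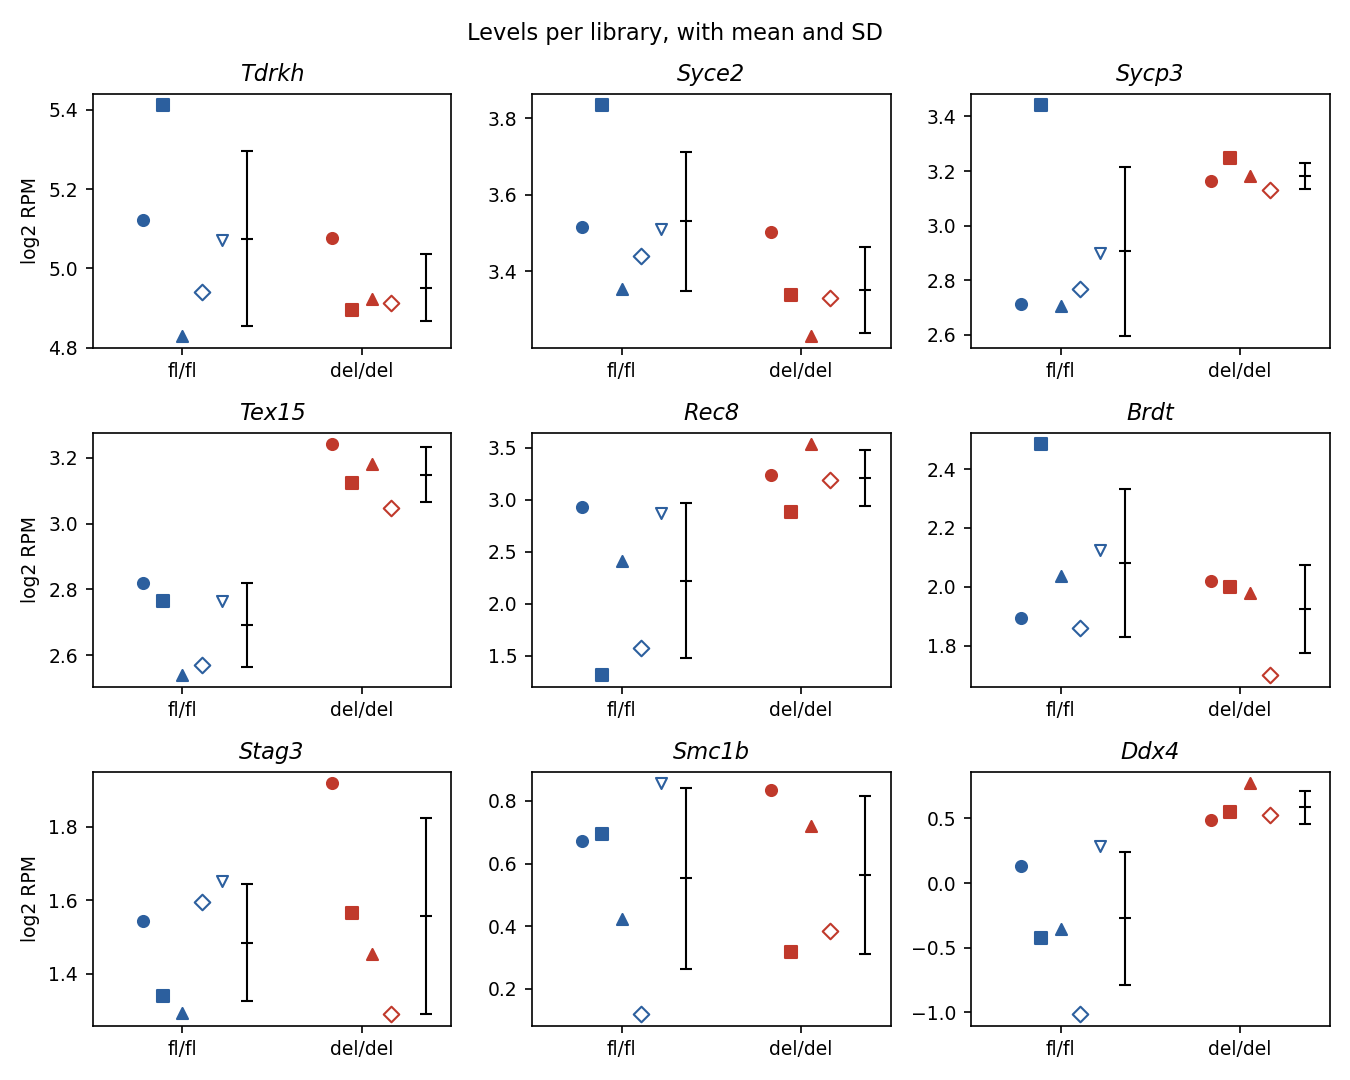
Level in log2 RPM of the 9 members that passed the filter, in del/del and fl/fl libraries (bars, mean ± SD; circle, line 1; square, line 2; upward triangle, line 3; diamond, line 5; downward triangle, line 7; filled, female; open, male). Tex15 and Ddx4 do not overlap between the groups, and the spread of Rec8 is wider in fl/fl (SD 0.744) than in del/del libraries (SD 0.268).

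Of the 9 members that could be tested, Rec8, Ddx4 and Tex15 lay furthest from 0. Over both sexes 0 of 9 members passed in either direction (limma, adjusted p under 0.05), beside 1.55% of the 14044 genes tested, 203 higher (1.45%) and 14 lower (0.0997%). At an unadjusted p under 0.05, 3 of the 9 members (Tex15, Rec8 and Ddx4, all higher in del/del) stood beside 1382 of the 14044 genes. With voom on the recovered reads 0 members passed as well, beside 1.88% of all genes. At an unadjusted p under 0.05 that fit gave 4 of the 9 members and 1414 of the 14044 genes. The median log2 difference of the 9 members was 0.073 and 5 lay above 0, against 48.9% of all genes. The values of 2 members, Tex15 and Ddx4, did not overlap between the groups, beside 6.52% of all genes. With the line as a block, 2 of 9 members rose, Rec8 and Tex15, beside 3.99% of all genes; with median centring too 0 did, beside 1.78%. Without the shallowest library, an alternative chosen after seeing the data, the block fit called 4 members higher (Rec8, Tex15, Ddx4 and Sycp3) beside 12.7% of all genes, and with median centring 0 members beside 5.1%.

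**Figure D3:**
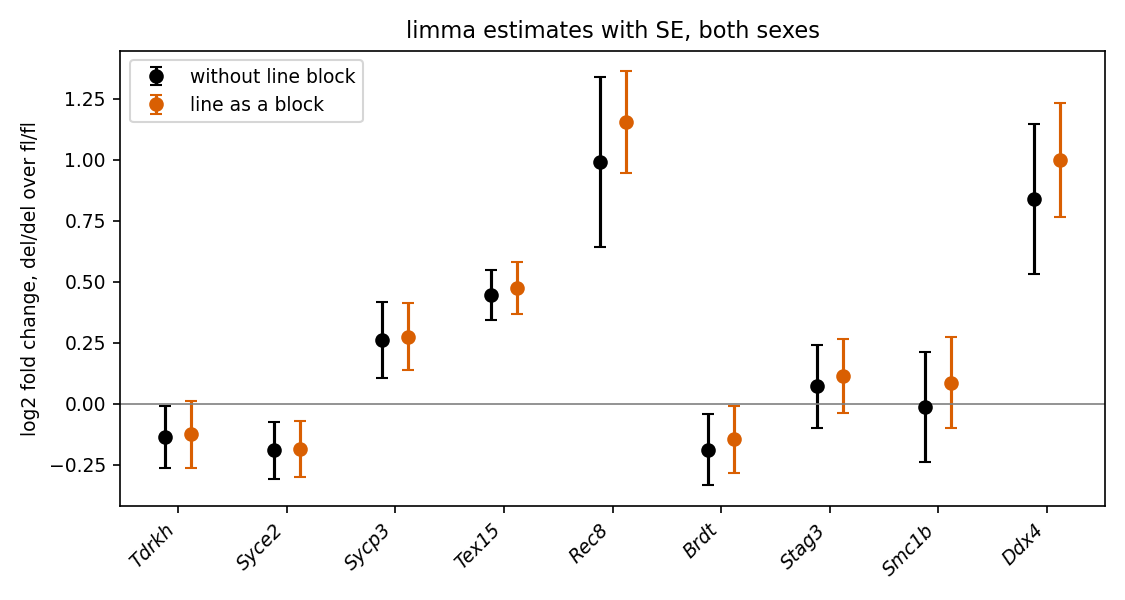
Log2 difference, del/del minus fl/fl, of the 9 tested members without and with the line as a block, with standard errors. Rec8, Ddx4 and Tex15 lie furthest above 0, at 0.99, 0.84 and 0.44 without the block.

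Within lines, Rec8 was higher in the del/del library of every pair, by 0.31, 1.57, 1.12 and 1.62 log2 units in lines 1, 2, 3 and 5. Ddx4 was higher by 0.36, 0.97, 1.12 and 1.54, and Tex15 by 0.42, 0.36, 0.64 and 0.48. Sycp3 was higher in lines 1, 3 and 5 (0.45, 0.48 and 0.36) and lower in line 2 (-0.19). The median of all tested genes differed by 0.22, -0.25, 0.10 and 0.081 in these lines, and these 4 members lay above it in each line. Of the other tested members, Stag3 lay under it in line 5, Smc1b in lines 1 and 2, and Tdrkh, Brdt and Syce2 in every line. The share of all genes above the median in every line was not counted. For Rec8 and Ddx4 line 1 gave the smallest difference of the 4 lines. Line 1 is the pair whose descriptions lack the prefix RNA-, a mark that male fl/fl 7 also lacks. Among the 6 libraries with the prefix, Rec8 differed by 1.44 (limma, 1.28% of all genes called, adjusted p = 0.0944), Ddx4 by 1.21 (adjusted p = 0.0672) and Tex15 by 0.49 (adjusted p = 0.128). Pairs outside the prefix were a single line, so no test was made there.

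**Figure D4:**
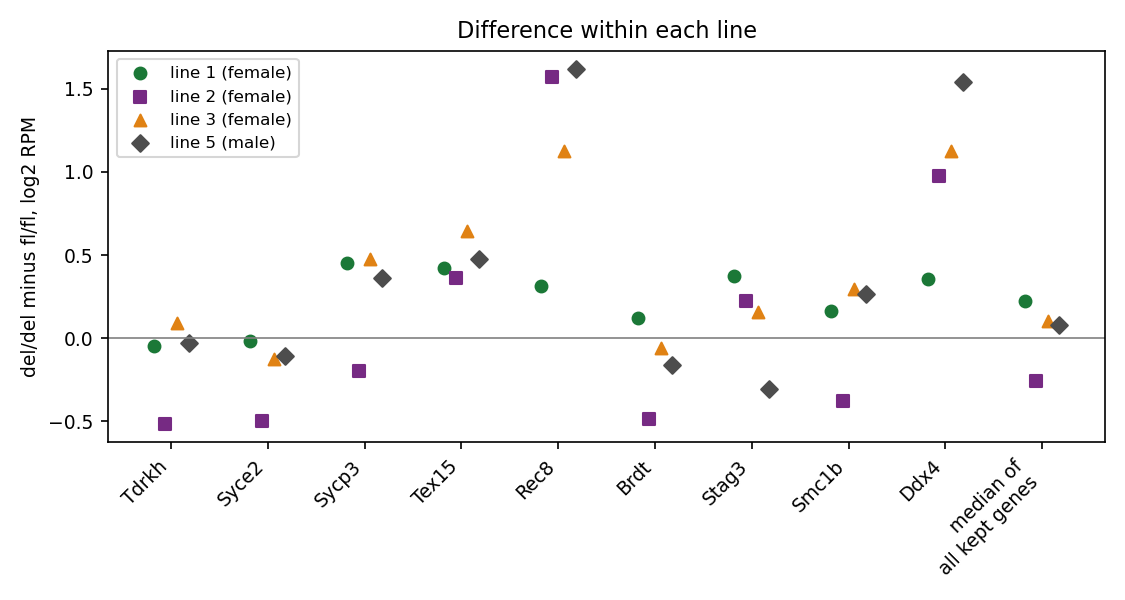
Within-line difference in log2 RPM, del/del minus fl/fl, of the 9 tested members in lines 1, 2, 3 and 5, beside the median over all tested genes. Rec8, Ddx4 and Tex15 lie above 0 in all 4 lines, and Rec8 and Ddx4 are smallest in line 1.

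The sexes could be compared only with 1 male del/del library, whose spread was assumed to be like that of the other groups. In females Tex15 differed by 0.47 (limma adjusted p = 0.330), Rec8 by 1.00 (adjusted p = 0.760) and Ddx4 by 0.82 (adjusted p = 0.865), beside 0.0142% of genes called. With the block Rec8 passed in females (adjusted p = 0.0258), beside 1.96% of genes, and with block and median centring it did not (adjusted p = 0.339). In males the differences were 0.38, 0.97 and 0.89, and 0 genes were called, with 370 at an unadjusted p under 0.05. The difference of the effects passed for 0 of 14044 genes, with 6 at an unadjusted p under 0.05 and no member among them.

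Without the filter, 32 members with a read could be fitted, and 0 passed, beside 1.23% of 22321 genes (limma, adjusted p under 0.05; 4 members and 1959 genes in all at an unadjusted p under 0.05). Summed over the 25 members under the filter, the level was 4.28 to 5.34 RPM in del/del and 4.74 to 6.30 RPM in fl/fl libraries, and these ranges overlapped.

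Genes of the same pathways outside the set were counted in the same way. Of 54 other germline and meiosis genes, 47 had a row, 19 passed the filter, and 0 rose and 0 fell, with a median difference of -0.0087. The smallest p-values belonged to Hfm1, a helicase of crossing over, at -0.51 (limma adjusted p = 0.430), Mei4, a partner of Spo11, at 0.61 (adjusted p = 0.508), and Trip13, an ATPase that removes HORMAD proteins, at -0.24 (adjusted p = 0.684). Of 15 other piRNA genes, 7 passed the filter and 0 were called, with a median of -0.033; the smallest p-values were those of Ddx25 (0.15, limma adjusted p = 0.909), Prmt5 (-0.14, adjusted p = 0.997) and Tdrd7 (-0.11, adjusted p = 0.997). Without the filter, Tfap2c, a transcription factor of primordial germ cells that other cell types also use, rose by 2.93 (SE 0.546, limma adjusted p = 0.0289), with 36 to 51 reads in each del/del and 1 to 12 in each fl/fl library. Of 22 genes known for silencing germline genes, Smchd1 included, 0 rose and 1, Smchd1, fell. The genes given next were named for their place in the complex described above or in DNA methylation, after values had been seen. E2f6 differed by -0.07, Mga by -0.02, L3mbtl2 by -0.04, Max by -0.04 and Dnmt1 by -0.11, with limma adjusted p-values of 0.997 or more.

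Most markers of germ cells were under the filter. Of 14 such genes in the table, Dnd1 alone passed the filter (difference -0.07), Tnp1 had 0 reads, and Pou5f1, Dppa3, Figla and Prm2 had 1 read each. Nanos3, Acrv1 and Prdm14 had 346, 160 and 73 reads over the 9 libraries. The list made 1.96 to 2.65 RPM in del/del and 2.19 to 2.74 RPM in fl/fl libraries, and these ranges overlapped. Among other cell types, 2 of 5 astrocyte markers rose (Gfap by 2.07, limma adjusted p = 0.0194, and Aqp4 by 1.66, adjusted p = 0.0231). The astrocyte list summed to 99.3 to 129 RPM in del/del and 67.5 to 95.8 RPM in fl/fl libraries, and its part in the differences of Rec8, Ddx4 and Tex15 was not tested. Of 6 neuron markers 5 had a row and 0 were called. Of 6 leukocyte markers, 2 passed the filter (Cx3cr1 and Csf1r) and 0 were called, with C1qa at 0 reads. Of 6 fibroblast markers none passed the filter. The list summed to 13.3 RPM in female del/del 2, where Col1a1 and Col1a2 had 607 and 671 reads, and to 1.87 to 2.97 RPM in the other 8 libraries, with Lum at 0 reads in all. Without female del/del 2 the differences were 1.10 for Rec8, 0.86 for Ddx4 and 0.46 for Tex15.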

How the data were processed

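Per the submitters' processing notes, the tools were TopHat2 2.0.12, bcl2fastq and edgeR 3.8.2 and the build mm10, with no roles stated. How reads were counted, on which annotation and with what strand setting is not given in the sources used here. By library, the authors deposited log2 RPM values, in which 0 reads were entered as 0.9 reads. Whole reads were recovered (tolerance 0.05 reads) and used for depth and read totals. In nested genes, none of 1061 inner rows with over 200 reads exceeded the row around it, so introns were counted too.

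Samples were grouped by their labels; the series' design text describes the groups differently from the sample labels, which were followed. A gene entered the test if 3 or more libraries reached log2 RPM 0 (14044 genes). limma 3.58.1 (R 4.3.3) fitted sex as a covariate with a trended prior, and p-values were adjusted by Benjamini-Hochberg over all genes tested (threshold 0.05). The fit was also run on simulated counts of independent libraries, without line effects or batches. That run does not show how the fit performs on these paired lines. The rule named every member, rows overlapping a member, and from each other list the genes that passed, or else the 3 with the smallest p-values. The members and lists were chosen with earlier results of these data known.

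Lines pair the libraries: per the labels' growth protocol, each line was split. Deviations of the same female line from the group means correlated at 0.868, 0.582 and 0.758 across 14044 genes (lines 1, 2 and 3). Lines 2 and 3 also correlated across numbers. Female del/del 2 correlated with fl/fl 3 at 0.728, above the 0.582 with its own line, and del/del 3 with fl/fl 2 at 0.494. Among the female lines only line 1 lacks the prefix RNA-, so these correlations cannot tell the pairing of lines from the prefix. The alternatives were the pseudocount, the filter, centring or quantile normalization, voom, the line as a block, no sex term, the prefix RNA- and leaving out each library in turn.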

Additional observations from a re-analysis of the deposited data

Results flagged for a closer look

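In 3 of 18 groups of values, the gap between 1 library and the others was larger than Dixon's critical value; chance flags about 1 group in 20. Tdrkh stood at 5.08 log2 RPM in female del/del 1, against 4.89 to 4.92 in the other 3 del/del libraries. Brdt stood at 1.70 log2 RPM in male del/del 5, against 1.98 to 2.02 in the others. Sycp3 stood at 3.44 log2 RPM in female fl/fl 2, the shallowest library, against 2.70 to 2.90 in the other 4 fl/fl libraries.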

How the results depend on the processing

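Of 196 member values recomputed under the alternatives, 174 kept direction and side of the threshold, 7 passed it and 15 changed sign. The number of members that rose, 0 in the report, was 2 with the replicate block, 1 with no sex term, 4 with the replicate block and without the shallowest library (chosen after seeing the data, 2 residual degrees of freedom), and 0 to 0 leaving out each library. The block with median centring and the other settings gave 0. Counts over all genes moved more. Over both sexes (217) they were 104 with quantile normalization and 561 with the replicate block; without the shallowest library the block gave 1788 and, with centring, 716. Leaving out each library gave 2 to 252, the 2 being without male del/del 5, the only male del/del library. In females (2) they were 39 with log2 of RPM plus 1, 1 with median centring, 28 with voom, 275 with the replicate block, 24 with block and centring, 0 with the RNA- prefix, 711 with the block and without the shallowest library, 537 with centring too, and 0 to 7 leaving out each library. In males (0) they were 49 with the replicate block and, without the shallowest library, 645 with the block and 656 with block and centring; for the difference of the sexes these last 2 fits gave 10 and 21, with 1 residual degree of freedom. The lists of other germline, piRNA and silencing genes gave 2 calls without the filter (Tfap2c and Smchd1), against 1.

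Near 0, signs turned. Tdrkh was 0.0065 with the block and without the shallowest library. Stag3 was -0.12 with quantile normalization, -0.044 without female del/del 1 (up to 0.25 leaving out male del/del 5) and -0.046 with block, centring and no shallowest library. Smc1b was 0.087 with the block, 0.052 with block and centring, 0.011 with no sex term, 0.062 with the prefix, 0.24 and 0.12 in the block fits without the shallowest library, and -0.097 to 0.087 leaving out single libraries. The cause was not tested. Low depth limits Ddx4 (18 reads in female fl/fl 2) and the 25 members under the filter; the stricter filter tested 7 members.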
